A study of Rattus norvegicus with 4 samples.

Results

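Expression of 10 genes of Wnt signalling was examined in rat mammary gland: the ligands Wnt4, Wnt5a and Wnt5b, the secreted modulators Sfrp1, Sfrp2, Sfrp4 and Dkk3, and the intracellular genes Axin2, Lef1 and Ctnnb1. The members were chosen by name, as all probe sets whose only gene symbol in the platform annotation was one of these. They comprised 21 of 31099 probe sets on the array and 10 of 14217 genes. The working name of the group, Wnt ligands and secreted modulators, covers 7 of the 10, since Axin2, Lef1 and Ctnnb1 act inside the cell. RNA of whole mammary gland was hybridised to 4 Affymetrix arrays, 1 per group. The groups were Sprague-Dawley rats (SDR) on day 1 of lactation, heterozygous and homozygous rats of the Hirosaki hairless strain (HHR), both on day 1 of lactation, and SDR on day 1 of involution, when the gland regresses after milk removal ends. The labels give no age, no number of animals behind an array and no length of lactation before involution. With 1 array per group there was no replicate error and no test, so every difference is given by its size, and no neighbours in an order of levels can be called different.

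Wnt proteins are secreted lipid-modified ligands that bind Frizzled receptors. In the canonical branch, binding together with the co-receptors Lrp5 or Lrp6 stops the destruction complex, in which Axin proteins are scaffolds, from marking beta-catenin (Ctnnb1) for degradation. Beta-catenin then enters the nucleus and works with TCF/LEF factors such as Lef1. Other Wnts act mainly through beta-catenin-independent branches that steer cell polarity and movement. Sfrp proteins bind Wnts outside the cell through a Frizzled-like domain. In the mammary gland, Wnt4 is known as a mediator of progesterone in side branching, and beta-catenin also links cadherins to the cytoskeleton at cell junctions.

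Promoter sequence was at hand for 6 of the 10 members (RefSeq, assembly GRCr8). Sfrp2 is shown because it was the member that stood past 2-fold in more than 1 comparison. Its gene lies on chromosome 2 from 171387536 to 171395081 on the plus strand, and the bases before its start are chr2:171387286-171387535.

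Sfrp2 upstream: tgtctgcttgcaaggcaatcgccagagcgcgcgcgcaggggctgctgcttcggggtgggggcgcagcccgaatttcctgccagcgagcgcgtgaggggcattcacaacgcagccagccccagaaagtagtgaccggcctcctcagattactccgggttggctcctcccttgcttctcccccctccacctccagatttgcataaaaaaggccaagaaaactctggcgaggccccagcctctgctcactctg

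The core letters of TCF/LEF sites were searched as CTTTGNN, with each N an A or a T, on both strands, in 250 bases before and 50 after each start. Of 33469 promoters of that length, 17.1% held at least 1 match. Axin2, the negative-feedback gene most used as a readout of canonical signalling, held 2, both on the plus strand, and the other 5 members with a promoter held none. The Axin2 windows below lie on chromosome 10 at chr10:94398542-94398571 and chr10:94398642-94398671, with the matches in capitals, which begin 232 and 132 bases before the start used in that table. That start lies inside the annotated gene, which begins at 94393379, so the windows may belong to the gene body. For Ctnnb1 and Wnt5a the whole searched stretch likewise lay inside the gene, which begins at 129517576 and at 3702300. The absence of a match there does not describe the bases before the annotated gene start. The starts used for Wnt4 and Lef1 also lay inside the gene. A match is a description of letters, not a shown site.

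Axin2, farther match: tcagatttcgcCTTTGAAaaagctgtgtcg

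Axin2, nearer match: ttactttcttgCTTTGATgttgggtagatc

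Signals are the deposited MAS5 values, an intensity per probe set with no fixed unit. Values under the floor of 91.7, the 40th percentile over all arrays, were raised to it before log2 was taken, and a fold against such a value is a lower bound, written as at least. Signals are printed below as deposited, also under the floor, where they have no reliable order. Of the 21 member probe sets 7 were above the floor in all 4 arrays, 8 in some and 6 in none. Between 10362 and 10467 genes per array were above it. The milk protein genes Csn2 and Lalba, which mark the secreting gland, were at 36580 or above in every array. RNA degradation raises the 3′ to 5′ signal ratio of control transcripts, which for Gapdh was 1.17 in SDR lactation, 1.60 in SDR involution, 1.93 in heterozygous and 2.30 in homozygous HHR. For actin the values were 4.60, 4.80, 7.86 and 5.91.

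**Figure D1:**
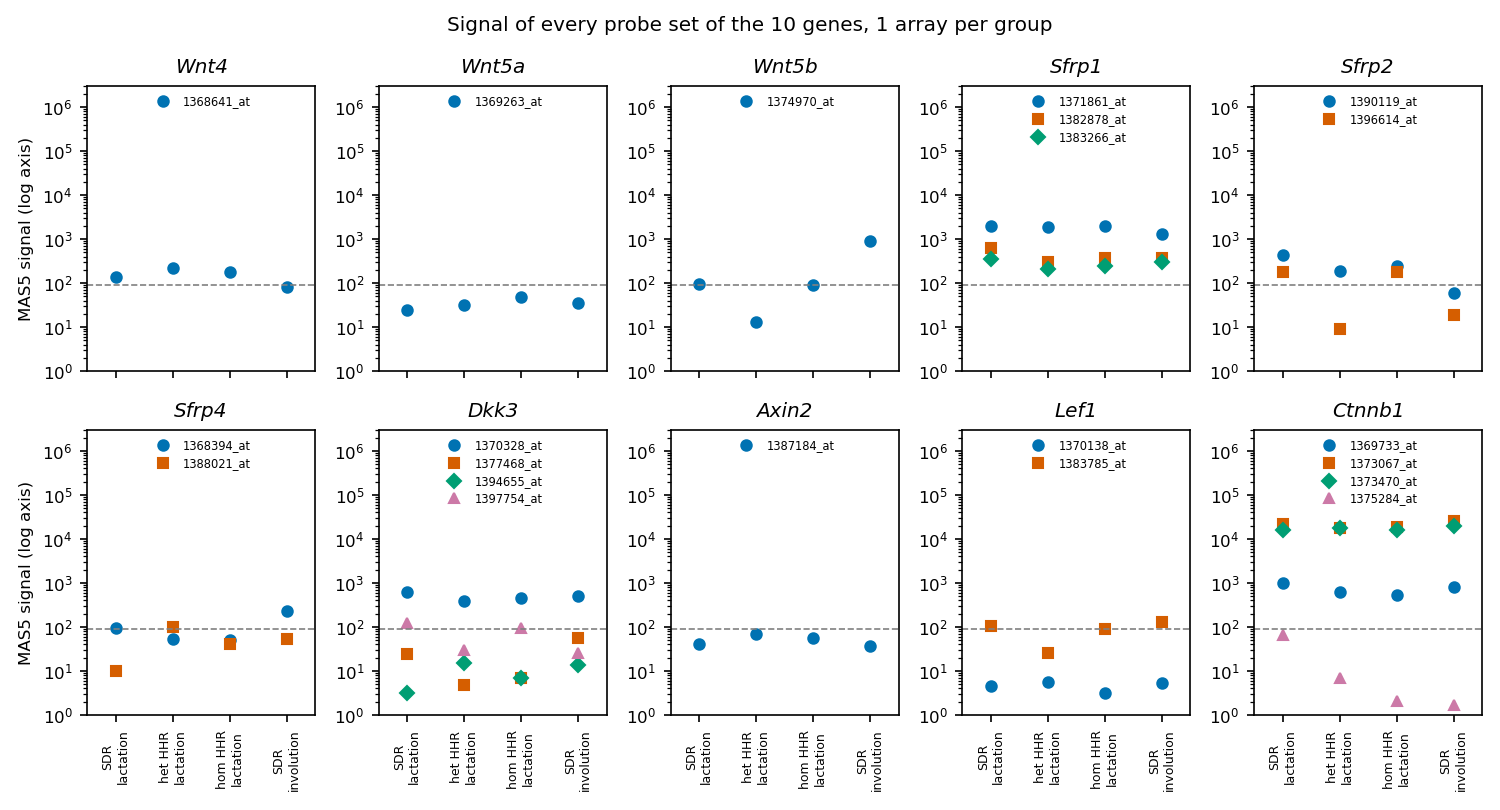
MAS5 signal (log axis) of all 21 probe sets of the 10 genes, 1 point per array; symbols mark the probe sets of a gene and the dashed line is the floor of 91.7. Wnt5b stands clear of the floor only in involution (892.6), Ctnnb1 has 2 probe sets at 16023.7 or above in every array, and Wnt5a and Axin2 lie under the floor throughout.

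Among the ligands, Wnt5b, which acts mainly through beta-catenin-independent branches, had the widest span of any member. Its only probe set gave 95.4 in SDR lactation, 12.9 in the heterozygous HHR array, 89.6 in the homozygous one and 892.6 in involution. The 3 lactation arrays were near or under the floor and the involution array was well above it. Involution was 9.36-fold above SDR lactation (log2 difference 3.23), and the signal was at least 9.73-fold higher in involution than in either HHR array.

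Wnt4 was low in all arrays, with 138.0 in SDR lactation, 215.2 in the heterozygous HHR array, 182.9 in the homozygous one and 83.3 in involution. The HHR arrays were the higher ones, 1.56-fold (heterozygous) and 1.33-fold (homozygous) above SDR, and the involution array was under the floor, with a log2 difference from SDR lactation of -0.59 at the floor. Heterozygous HHR stood at least 2.35-fold above involution. Wnt5a, a close paralog of Wnt5b, had 24.1, 31.3, 47.9 and 34.7 in SDR lactation, heterozygous HHR, homozygous HHR and involution, all under the floor, so its level was not measurable here and no fold is given. Of the 3 ligands, Wnt5b alone was above the floor in involution.

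Of the secreted modulators, Sfrp2, a Wnt-binding protein made chiefly by stromal cells, spanned the most. Its brighter probe set gave 428.9 in SDR lactation, 184.5 in the heterozygous HHR array, 243.5 in the homozygous one and 60.8 in involution. SDR lactation was highest and involution was under the floor, with the HHR arrays between them. Against SDR lactation it was 2.32-fold lower in heterozygous HHR (log2 -1.22), 1.76-fold lower in homozygous HHR (-0.82) and at least 4.68-fold lower in involution (-2.23). The second probe set gave 175.0, 9.0, 173.7 and 18.6 in that order of groups. It was likewise low in heterozygous HHR and involution, each at least 1.91-fold below SDR lactation, but it did not repeat the lower value of homozygous HHR, where its log2 difference was -0.01.

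Sfrp1, a related Wnt-binding protein, had all 3 of its probe sets above the floor in every array. The brightest gave 2021.3 in SDR lactation, 1841.2 in the heterozygous HHR array, 1958.4 in the homozygous one and 1272.7 in involution. Here the 3 lactation arrays lay close together and involution was 1.59-fold below SDR (log2 -0.67). The second gave 635.9, 308.6, 375.6 and 370.9, with SDR lactation well above the other arrays and heterozygous HHR 2.06-fold lower (-1.04). Its dimmest gave 343.7, 209.1, 243.0 and 293.9. In all 3 probe sets SDR was the highest and heterozygous HHR the lowest of the lactation arrays, but the size of the difference between them ranged from -0.13 to -1.04.

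Sfrp4, a further Wnt-binding protein, differed from Sfrp1 and Sfrp2 in that its brighter probe set was highest in involution. That probe set gave 92.5 in SDR lactation, 53.1 in the heterozygous HHR array, 49.8 in the homozygous one and 236.3 in involution, 2.55-fold above SDR lactation (log2 1.35). The lactation arrays were near or under the floor. The second probe set gave 9.9, 98.0, 40.7 and 52.9, was under the floor in both SDR arrays and did not show the higher involution value. With the mean of both probe sets the log2 difference was 0.68, with the floor as a pseudocount 0.83 and with the floor at the 55th percentile 0.25, so that Sfrp4 fell short of 2-fold in these settings.

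Dkk3, a divergent Dickkopf protein whose effect on Wnt signalling varies between settings, had 1 probe set above the floor in every array. It gave 637.9 in SDR lactation, 386.5 in the heterozygous HHR array, 448.9 in the homozygous one and 498.3 in involution. SDR lactation was the highest, 1.65-fold above heterozygous HHR, 1.42-fold above homozygous HHR and 1.28-fold above involution. A second probe set, with 125.8, 29.7, 96.3 and 26.0, was also highest in SDR lactation, and the other 2 were under the floor in all arrays. The order of the main Dkk3 probe set and of the dimmest Sfrp1 probe set over the 4 arrays was the reverse of the order of the actin 3′ to 5′ ratio, and its part in these values was not tested.

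Inside the cell, Ctnnb1, encoding beta-catenin, gave strong signals. Its brightest probe set had 22104.3 in SDR lactation, 17833.1 in the heterozygous HHR array, 18586.9 in the homozygous one and 25282.9 in involution, and the next had 16360.7, 17277.0, 16023.7 and 19361.6. Both were highest in involution, by 1.14-fold (log2 0.19) and by 0.24 on the log2 scale over SDR lactation, and no array differed from SDR lactation by more than 0.31 in either. A dimmer probe set went another way, with 994.4, 632.0, 545.5 and 791.9, highest in SDR lactation and 1.82-fold lower in homozygous HHR (log2 -0.87). Its order over the arrays was the reverse of that of the Gapdh 3′ to 5′ ratio, whose part in it was not tested. The fourth probe set was under the floor in all arrays.

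The 2 members that are themselves targets of canonical signalling were at the limit of detection. Axin2 gave 40.3 in SDR lactation, 70.5 in the heterozygous HHR array, 55.4 in the homozygous one and 37.6 in involution, all under the floor. Lef1, the TCF/LEF factor of the set, gave 103.6, 25.2, 89.8 and 127.1 in its brighter probe set and at most 5.6 in the other. SDR lactation and involution were just above the floor and 1.23-fold apart. No fold is given for Axin2.

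For counts, the probe set of highest mean log2 value stood for each gene, and a gene was measured in a comparison if either array was above the floor. Between homozygous HHR and SDR at lactation 0 of 8 measured members passed 2-fold upwards and 0 downwards, beside 3.77% and 2.72% of 10862 genes. The members' median log2 difference was -0.12, with 7 of 8 below 0, while the median of all genes was 0.02 and 48.6% of them were below 0. For 3 of the 7, Wnt5b, Sfrp4 and Lef1, the value was a bound at the floor (-0.06, -0.01 and -0.18), and Ctnnb1, at -0.25, turned to 0.03 under quantile normalization. Between heterozygous HHR and SDR 0 of 8 were higher and 1, Sfrp2, was lower, beside 4.58% and 4.14% of all genes, with a median of -0.16 against 0.01. Both comparisons share the SDR array, so that a high value in it lowers both. Between homozygous and heterozygous HHR 0 of 5 members passed 2-fold in either direction, beside 3.76% higher and 3.13% lower of all genes, and their median was 0.09.

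Involution against lactation in SDR separated the members most. Of 8 measured members 2 were higher, Wnt5b and Sfrp4, and 1 was lower, Sfrp2, beside 10.3% of all genes higher and 8.94% lower. The median was -0.08 against 0.08 for all 11006 genes, with 4 members above 0 and 4 below. The count of 3 came down to 2, Wnt5b and Sfrp2, with the floor at the 55th percentile, with the floor as a pseudocount, with the mean of all probe sets, and at 3-fold. Wnt5b and Sfrp2 were past 2-fold in this comparison in every setting tried, in opposite directions, but their sizes depended on the floor, since the SDR lactation signal of Wnt5b and the involution signal of Sfrp2 were near or under it. The log2 difference of Wnt5b went from 3.23 to 2.17 with the floor at the 55th percentile and to 2.40 with the pseudocount. That of Sfrp2 went from -2.23 to -1.11 and -1.77, to -1.58 with the mean of its probe sets and to -2.82 with the floor at the 25th percentile.

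**Figure D2:**
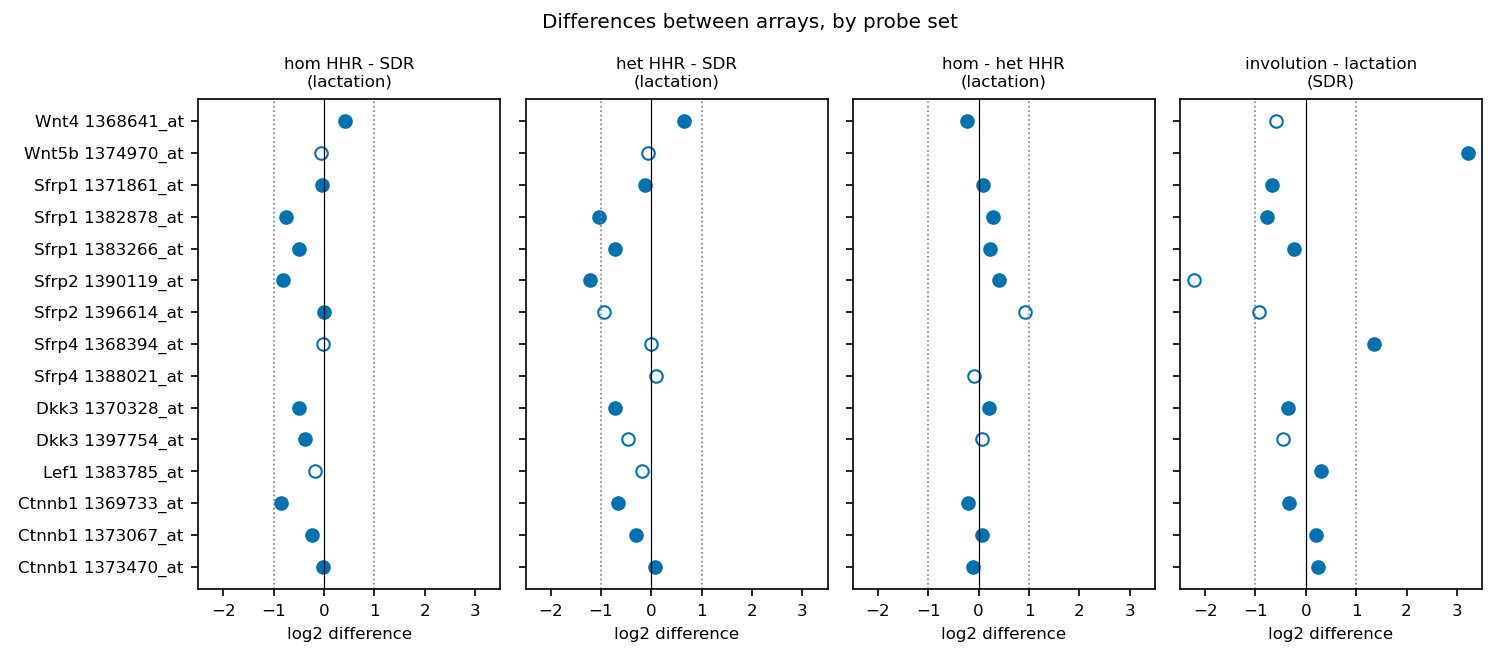
log2 differences between arrays for the 15 probe sets above the floor in at least 1 array, in 4 comparisons; open points have 1 array of the pair at the floor and are bounds, and dotted lines mark 2-fold. Sfrp1, Sfrp2 and Dkk3 lie at or left of 0 in both HHR comparisons with SDR, and Wnt5b lies at 3.23 in involution.

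In the HHR comparisons with SDR, probe sets of 1 gene differed from each other by about as much as the members did between arrays. For Sfrp1 the log2 differences of its 3 probe sets between heterozygous HHR and SDR spanned 0.91, and for the 3 measured Ctnnb1 probe sets the span was 0.73. The median span over 605 genes with at least 3 probe sets above the floor in both arrays was 0.86. For homozygous HHR and SDR the spans were 0.71 and 0.84, against a median of 0.81 over 579 genes. Of the 15 member probe sets above the floor in a lactation array 12 were lower in both HHR arrays than in SDR, beside 37.4% of 15376 probe sets of all genes. Among the 12, those of Wnt5b, Sfrp4 and Lef1 were above the floor at lactation only in SDR. For them a lower value in both HHR arrays was fixed by the filter, with bounds of -0.06, -0.01 and -0.18. Several of the 12 are also probe sets of the same gene. The 12 included all 7 of Sfrp1, Sfrp2 and Dkk3, genes picked out here for that direction, by sizes mostly within that span. The other 3 were Wnt4, higher in both HHR arrays, and a Sfrp4 probe set (0.10) and a Ctnnb1 probe set (0.08) that were higher in heterozygous HHR.

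Markers of cell types were read beside these values, since in whole tissue fewer cells of a type and less RNA per cell cannot be told apart. Fibroblasts are a known source of Sfrp2. Between heterozygous HHR and SDR 4.14% of all genes were at least 2-fold lower and 4.58% higher. Of 11 fibroblast markers 2 were at least 2-fold lower in heterozygous HHR than in SDR, 0 were higher, and the median log2 difference was -0.74. Their summed signal was 74521 in SDR lactation, 48043 in the heterozygous HHR array, 73258 in the homozygous one and 59133 in involution. The 2 brightest went different ways, as the fibrillar collagen Col3a1 had 31427.1 in SDR lactation and 18052.9 in heterozygous HHR, and Col1a1 had 9675.4 and 9831.9 (log2 0.02). Pdgfra, at 0.06, was the other of the 2 markers above 0. Heterozygous HHR was lowest in the fibroblast sum and, among the lactation arrays, in the main probe sets of Sfrp1, Sfrp2 and Dkk3. It was also lowest in the summed macrophage markers, with 3775 against 6528 in SDR lactation, 5412 in homozygous HHR and 6042 in involution, and 3 of 7 of them were at least 2-fold lower than in SDR (median -0.47). T cell markers had medians of -0.40 in heterozygous and -0.63 in homozygous HHR and -0.67 in involution. In homozygous HHR the fibroblast median was -0.03 while Sfrp2 was at -0.82 and Dkk3 at -0.51, and in involution it was -0.18 while Sfrp2 was at -2.23. None of the fibroblast markers was under the floor in all arrays.

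Endothelial markers had a median of -0.57 in homozygous and -0.71 in heterozygous HHR against SDR, with 1 of 7 at least 2-fold lower in each and 0 higher. Markers of myoepithelium, the contractile basal layer, went the other way, with medians of 0.98 and 0.68 and 3 of 9 and 1 of 9 higher, while 1 of 9, the oxytocin receptor Oxtr, was lower in each. Their summed signal was 22319 in SDR lactation, 37716 in the heterozygous HHR array, 37202 in the homozygous one and 27670 in involution. Luminal markers had medians of -0.05 and -0.11 in the HHR comparisons. Of 7 markers of hormone-sensing cells, a known source of Wnt4, Pgr, Foxa1, Areg and Tnfsf11 were under the floor in all arrays. Prlr, the prolactin receptor, had 12406.7 in SDR lactation, 11403.6 in the heterozygous HHR array, 12460.7 in the homozygous one and 4270.5 in involution. This brightest of its 3 measured probe sets was 2.91-fold lower in involution, in the same direction as Wnt4, and all 3 were lower there. In heterozygous HHR all 3 were below SDR, down to a log2 difference of -1.87. In homozygous HHR they ranged from -1.95 to 0.01, while Wnt4 was higher in both HHR arrays. Prom1 was above the floor in all arrays, between 236.2 and 417.6, and did not share the lower involution value (log2 0.10). The remaining marker, Esr1, was above the floor only in SDR lactation (96.2). With most of this list under or near the floor, Prlr alone does not give the level of hormone-sensing cells, and its shared direction with Wnt4 does not either. The part of these shifts in the members' values was not tested.

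In involution, where Wnt5b and Sfrp4 were higher and Sfrp2 lower, other marker lists moved more than the fibroblast list. All 3 measured markers of skin epidermis passed 2-fold upwards, Krt10 with 735.5 against 279.8 in SDR lactation and Krt1 and Loricrin from under the floor, and the summed signal of that list was 1376 against 396. Of 6 measured adipocyte markers 3 were lower (median -1.03), with the fatty acid carrier Fabp4 at 5137.3 against 23931.2, while against SDR at lactation 2 of the 6 were lower in each HHR array and 2 were higher in the heterozygous one. Of 9 luminal markers 3 were higher, the keratins Krt8 (4.37-fold), Krt18 (3.46-fold) and Krt19 (4.84-fold), and 1, Elf5, was lower, with a median of 0.28. Skeletal muscle markers had medians of 0.59 in homozygous and 0.34 in heterozygous HHR and 0.36 in involution, none past 2-fold. The part of these lists in the involution values of Wnt5b, Sfrp4 and Sfrp2 was not tested either.

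**Figure D3:**
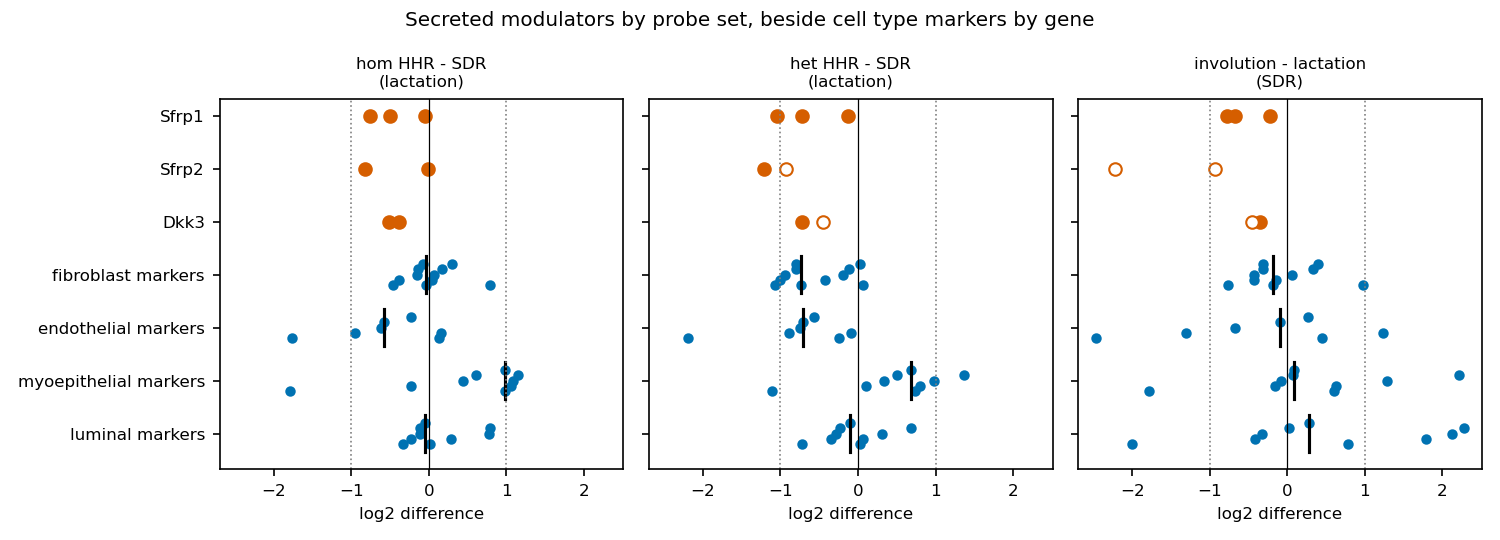
log2 differences of Sfrp1, Sfrp2 and Dkk3 by probe set (orange, open where 1 array is at the floor) beside markers of 4 cell types by gene (blue; black bars are list medians; height within a row has no meaning). In heterozygous HHR the fibroblast markers have a median of -0.74, with Col1a1 (0.02) and Pdgfra (0.06) above 0, and in homozygous HHR they centre on -0.03.

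The wider pathway was described through 10 lists of Wnt genes, of which 106 distinct genes were on the array and 16 under the floor in all arrays. Among the 96 that are no member, 3 of 75 measured genes were at least 2-fold higher in homozygous HHR than in SDR and 0 lower. Over all genes the shares were 3.77% and 2.72%. These counts use the brightest probe set of each gene. Other probe sets passed 2-fold in either direction, such as Rhoa at -1.45 and Tcf7l2 at 1.12 on the log2 scale in homozygous HHR. For heterozygous HHR 5 of 77 were higher and 1 lower, beside 4.58% and 4.14% of all genes. For homozygous against heterozygous HHR 3 of 78 were higher and 1 lower, beside 3.76% and 3.13%. In involution 11 of 80 were higher and 6 lower, that is 13.8% and 7.50%, near the 10.3% and 8.94% of all genes.

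Of the other ligands, Wnt9a was at least 2.12-fold higher in involution (194.8 against 75.6 in SDR lactation) and Wnt6 at least 2.06-fold lower (71.6 against 188.9). Of 8 measured secreted inhibitors in involution 1 was higher and 1 lower, both members, and the median was -0.46. The one inhibitor that passed 2-fold upwards in HHR was Sostdc1, which binds Lrp5 and Lrp6 and also blocks BMP signals. It had 297.5 in SDR lactation, 731.7 in the heterozygous HHR array, 682.6 in the homozygous one and 253.1 in involution, so that both HHR arrays were more than 2-fold above both SDR arrays. Against SDR lactation it was 2.46-fold and 2.29-fold higher, in the direction opposite to Sfrp1, Sfrp2 and Dkk3. Wls, which carries Wnts to the cell surface, lay between 1008.9 and 1272.1 in all arrays. Gpc3, a cell surface proteoglycan, was at least 2.01-fold lower in heterozygous HHR.

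Of 11 measured receptors 3 were higher and 2 lower in involution, beside 10.3% and 8.94% of all genes, with a median of 0.27. The co-receptors Lrp5 and Lrp6 differed in direction: Lrp5 was 2.76-fold lower (286.5 against 791.7) and Lrp6 was 2.10-fold higher (1455.9 against 694.4). Fzd4 was 3.23-fold lower (398.7 against 1286.8), and Ptk7, a receptor of the polarity branch, was 3.23-fold higher (2621.3 against 812.0). Ptk7 was also 2.38-fold higher in heterozygous HHR. Among genes of the non-canonical branch 2 of 14 were higher in involution, 2 were lower and the median was 0.45. Vangl1, a core polarity protein, had 1137.0 against 284.2 and was higher, and the formin Daam1 was 3.88-fold higher in its brightest probe set. Its 3 probe sets were all higher, by log2 differences from 0.67 to 1.96. The GTPase Rhoa was 2.51-fold lower and Plcb1 2.07-fold lower. The HHR arrays shared some of these directions against SDR lactation. In homozygous and heterozygous HHR the log2 differences were 0.81 and 0.74 for Vangl1 and 0.74 and 0.37 for Daam1. They were -0.77 and -0.99 for Rhoa, and -0.06 and -0.14 for Plcb1. Wnt5b was under the floor in both HHR arrays and 9.36-fold higher in involution than in SDR lactation. A link between Wnt5b and these values was not tested.

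Of the destruction complex and its relays 0 of 11 or 12 measured genes passed 2-fold in the HHR comparisons with SDR and 0 of 12 in involution. This holds for the brightest probe set of each gene. Other probe sets passed 2-fold downwards, and none did so upwards. Those of Tnks2 ranged from -1.78 to 0.34 in homozygous HHR, -1.49 to 0.27 in heterozygous HHR and -2.34 to 0.32 in involution. The lowest were -1.05 for Csnk1a1 (homozygous HHR), -1.27 for Csnk1d (heterozygous HHR) and -1.01 for Apc (involution). Csnk1a1, a kinase that primes beta-catenin, had 5181.6 in SDR lactation and 3753.5 in homozygous HHR. Of 14 nuclear factors and partners 3 were higher in involution, the beta-catenin cofactor Bcl9l 2.91-fold, the antagonist Cby1 2.45-fold and the corepressor Tle3 2.21-fold, and 0 were lower. Over all genes 10.3% were higher there and 8.94% lower. A second Cby1 probe set was higher by only 0.35 on the log2 scale. Tcf7l2, another TCF/LEF factor, lay between 2446.5 and 3946.5 in its brightest probe set. All 5 of its measured probe sets were higher in both HHR arrays than in SDR. The log2 differences were 0.10 to 1.12 in homozygous and 0.40 to 1.44 in heterozygous HHR, and -0.29 to 1.03 in involution. At junctions, the beta-catenin partner Cdh1 (E-cadherin) was 3.97-fold higher in involution, with 11356.1 against 2861.0, while Ctnna1 had 9259.9 against 7426.2.

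The genes listed as Wnt targets did not move as one. Cyclin D1 (Ccnd1) had 3249.9 in SDR lactation, 7259.3 in the heterozygous HHR array, 3359.1 in the homozygous one and 1449.2 in involution, 2.23-fold higher in heterozygous HHR and 2.24-fold lower in involution. Its 3 probe sets shared the direction in both, although for heterozygous HHR 1 of them differed by only 0.18. Cd44, an adhesion receptor, had 203.1, 101.9, 204.4 and 471.0 in the same order of groups, 2.32-fold higher in involution. Myc, a growth-promoting transcription factor, had 370.8, 842.2, 2535.6 and 207.4 in that order, 6.84-fold higher in homozygous and 2.27-fold higher in heterozygous HHR than in SDR. Jun, an AP-1 subunit, had 852.5, 592.7, 4106.3 and 1564.4. In homozygous HHR it was 4.82-fold above SDR and 6.93-fold above heterozygous HHR, with the same direction in all 3 of its probe sets. These genes answer to many other signals as well. Procr, a marker of Wnt-responsive mammary cells, had 512.1 in SDR lactation and 304.6, 314.8 and 362.0 in heterozygous HHR, homozygous HHR and involution.

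**Figure D4:**
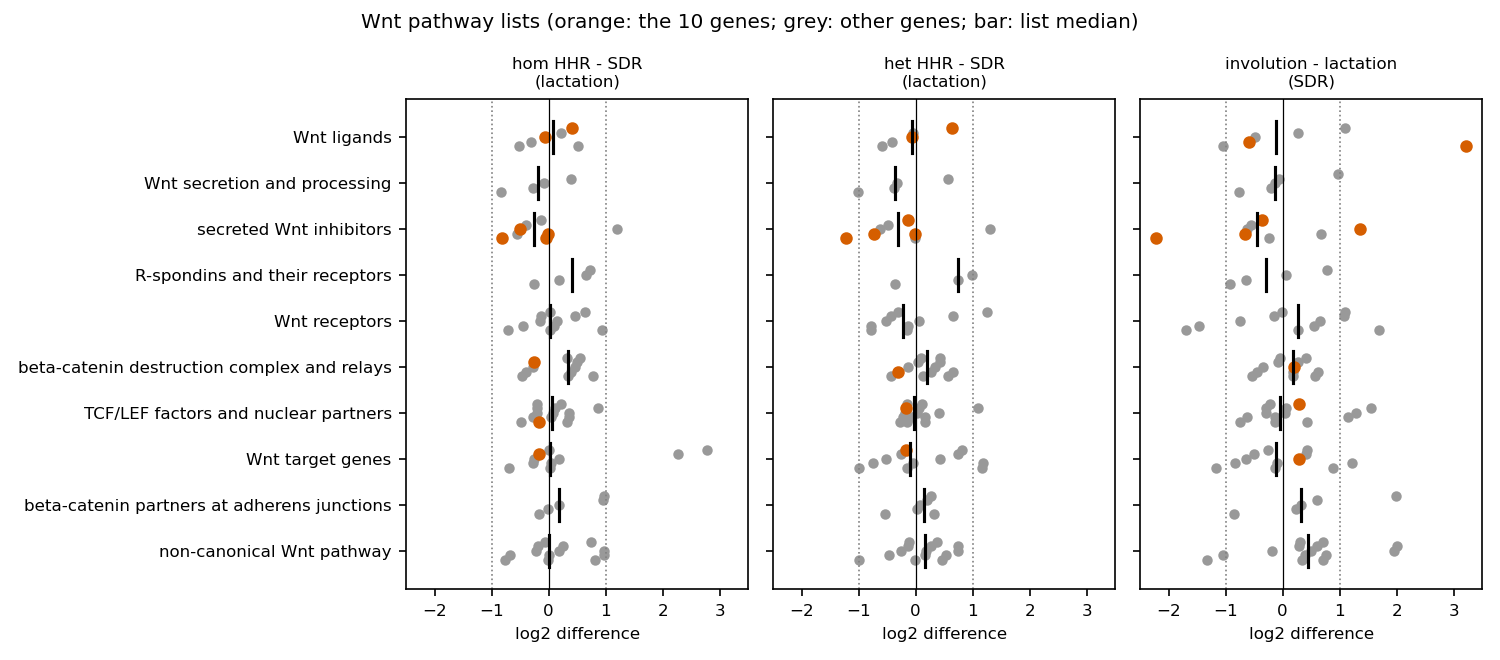
log2 differences of genes in 10 Wnt pathway lists in 3 comparisons (orange: the 10 members; grey: other genes; black bars: list medians; dotted lines: 2-fold; height within a row has no meaning; a gene in 2 lists is drawn in both). Wnt5b at 3.23 and Sfrp2 at -2.23 in involution lie farthest out of all points in that panel.

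A search for genes with a pattern like a member's was set to members above the floor in all 4 arrays and with a range of at least 1 on the log2 scale. None of the 10 met both conditions: Sfrp1, Dkk3 and Ctnnb1 had ranges of 0.67, 0.72 and 0.50, and the others were at or under the floor in at least 1 array.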

How the data were processed

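Rat mammary gland RNA of 4 groups, 1 array each, was analysed from the deposited intensity values. Per the submitters' processing notes these are MAS5 signals. Their version and parameters are not stated. The scaling made by the authors was kept, as the 2% trimmed mean was 500.0 in each array. Columns were tied to samples by accession, with 0 left unmapped. Of the non-control probe sets 20826 had 1 gene symbol in the platform annotation, 436 several and 9780 none; only the first were named, and 57 control probe sets were not. All 10 members' gene identifiers were found in the RefSeq table of GRCr8. The floor was the 40th percentile of all probe sets (91.7), and the threshold was 2-fold. No test was possible. Per list, up to 4 other genes past 2-fold and 2 short of it, the brightest, were eligible for naming, and from the marker lists the 2 brightest. Oxtr, Pdgfra, Krt1, Krt8, Krt18, Krt19, Elf5, Esr1 and the undetected hormone-sensing markers were named after their values were seen. The members and lists were chosen with earlier results of these data known. The steps were tested on simulated data. Python 3.11.15, numpy 2.4.6 and pandas 2.3.3 were used. The alternatives were median centring, quantile normalization, floors at the 25th and 55th percentiles, the floor used as a pseudocount, averaging a gene's probe sets, the brightest unshared probe set and a 3-fold threshold.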

Additional observations from a re-analysis of the deposited data

How the results depend on the processing

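Counts of members past 2-fold depended on the floor where signals were low. For heterozygous HHR against SDR the count of 1 (Sfrp2) became 3 with the floor at the 25th percentile (42.8), which added Wnt5b and Lef1 as lower, and 0 with the floor as a pseudocount or at 3-fold, where Sfrp2 had a log2 difference of -0.91 or its 2.32-fold fell short. For homozygous against heterozygous HHR the count of 0 became 2 with the floor at the 25th percentile, Wnt5b and Lef1, both higher. The count of 0 for homozygous HHR against SDR was 0 in all 8 alternatives, and that of involution against lactation stayed at 2 or 3. Of 194 single values of members under the alternatives, 188 stayed on the same side of 2-fold and 6 did not, which were Wnt5b and Lef1 in heterozygous HHR at the lower floor (-1.16 and -1.27), Sfrp2 as above, and Sfrp4 in involution at the 55th percentile, with the pseudocount and with the mean of probe sets (0.25, 0.83 and 0.68). No value past 2-fold turned its sign, but 3 smaller ones did: Ctnnb1 in homozygous HHR against SDR (-0.25 to 0.03, quantile normalization), and, with the mean of probe sets, Sfrp4 in heterozygous HHR (-0.01 to 0.04) and Ctnnb1 in homozygous against heterozygous HHR (0.06 to -0.07). All member probe sets were unshared, so that alternative changed none of them. Median centring moved the median of all genes in involution from 0.08 to -0.06. No paired analysis was possible because each group has 1 array. Signals under the floor, which hold 6 of 21 member probe sets in all arrays, limit what can be seen of Wnt5a, Axin2 and Lef1.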
